A study of Mus musculus with 9 samples.

Results

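The genes examined here are 10 regulators and products of tissues that lie beside the embryonic spinal cord: the muscle genes *Myod1*, *Myf5*, *Myf6*, *Myog* and *Tnnt3*, and the sclerotome and somite genes *Pax1*, *Pax9*, *Meox1*, *Meox2* and *Twist1*. They were chosen by name, as a measure of the somite-derived tissue that a dissected spinal cord may carry along, with earlier results of these arrays known. Each was read by 1 array feature that the platform annotation assigns to that symbol alone. A second feature that lists *Pax1* together with another symbol was left out by this rule. They make up 10 of the 22180 genes with a single symbol on the array, which holds 41345 features in all.

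Whole spinal cords were dissected from mouse embryos at e11.5, 5 labelled control and 4 *Hnf6-/-;Oc2-/-* double-mutant (OC mutant), and their total RNA was hybridised to Affymetrix MoGene 2.0 ST arrays, with 1 array per sample. *Hnf6* (*Onecut1*) and *Oc2* (*Onecut2*) encode transcription factors of the Onecut family, and the comparison asks what their loss changes in the cord. The fifth mutant embryo that the series counts is not analysed here. The labels call the controls only by that word, with no genotype, and the samples' litters are not given, so p-values measure the spread between these samples.

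In the vertebrate embryo, somites flank the neural tube. Their ventral part, the sclerotome, forms the vertebrae and ribs under the paired-box factors Pax1 and Pax9, and their dorsal part gives rise to muscle. There Myf5, Myf6 and Myod1, basic helix-loop-helix factors that bind E-boxes, commit cells to the myogenic lineage, and Myog drives their differentiation into fibers, which make contractile proteins such as the fast skeletal troponin T encoded by *Tnnt3*. Meox1 and Meox2 are homeobox factors of the somites. Twist1 is a basic helix-loop-helix factor of mesodermal mesenchyme and cranial neural crest. All 10 serve as markers of those tissues.

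The promoter sequences of 6 of the 10 genes were found in the RefSeq table of assembly GRCm38.p6 (*Myf5*, *Myog*, *Pax1*, *Pax9*, *Meox2* and *Twist1*). The 250 bases before the start site are shown for *Myog*, the myogenic factor with the largest difference between the groups, and for *Pax1*, *Pax9* and *Meox2*, 3 of the sclerotome and somite genes, which varied widely among the arrays. Capitals mark the E-box, CANNTG, read on both strands since it reads as CANNTG on either. *Myog* is at chr1:134289754-134290003 (plus strand), *Pax9* at chr12:56695221-56695470 (plus strand), *Meox2* at chr12:37108290-37108539 (plus strand) and *Pax1* at chr2:147364744-147364993 (plus strand).
Myog: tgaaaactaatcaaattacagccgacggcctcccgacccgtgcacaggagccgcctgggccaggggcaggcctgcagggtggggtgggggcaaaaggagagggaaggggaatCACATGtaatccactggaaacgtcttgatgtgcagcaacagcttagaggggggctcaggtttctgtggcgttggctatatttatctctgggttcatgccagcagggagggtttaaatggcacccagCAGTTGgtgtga
Pax9: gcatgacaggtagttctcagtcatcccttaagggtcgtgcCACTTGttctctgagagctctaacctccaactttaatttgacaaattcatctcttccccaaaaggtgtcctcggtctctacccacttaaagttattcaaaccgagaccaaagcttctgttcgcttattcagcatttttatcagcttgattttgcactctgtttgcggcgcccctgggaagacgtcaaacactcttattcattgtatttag
Meox2: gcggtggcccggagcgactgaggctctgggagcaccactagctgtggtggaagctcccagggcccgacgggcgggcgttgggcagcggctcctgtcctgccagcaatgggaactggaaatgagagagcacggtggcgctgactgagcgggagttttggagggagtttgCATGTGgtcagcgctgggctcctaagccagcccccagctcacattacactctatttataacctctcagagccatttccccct
Pax1: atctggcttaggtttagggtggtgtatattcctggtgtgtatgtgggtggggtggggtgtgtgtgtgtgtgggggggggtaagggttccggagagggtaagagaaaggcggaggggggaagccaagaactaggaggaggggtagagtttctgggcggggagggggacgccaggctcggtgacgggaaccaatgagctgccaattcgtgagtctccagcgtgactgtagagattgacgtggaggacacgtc

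The *Myog* window held 2 E-boxes, CACATG starting 138 bases and CAGTTG starting 12 bases before the start site. *Pax9* held CACTTG, 210 bases before it, and *Meox2* held CATGTG, 82 bases before it. An E-box was thus present in 3 of the 6 windows, where 66.2% of 32851 promoter windows of the same length held one. The variant CAGCTG was in 0 of the 6 and in 13.0% of all windows. These are matches of letters and no measurement of binding.

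The 10 genes were first considered together. No gene of the 10 passed an adjusted p of 0.05 in limma, where 5 of the 22180 genes did (0.0225%). At an unadjusted p under 0.05, 2 genes were lower in OC mutant spinal cords (*Myog* and *Tnnt3*, background 4.93% of all genes) and 0 were higher (background 4.81%). Every mutant value lay below every control value for 1 gene (*Tnnt3*, background 1.79%) and above for 0 (background 2.15%). The log2 fold change was negative for 9 of the 10, all but *Myf6*, where 48.7% of all genes had a negative one. Its median was -0.28 over the 10 genes, -0.19 over the 5 myogenic genes and -0.34 over the 5 sclerotome and somite genes, against 0.0045 over all genes. In RNA from whole tissue, fewer cells of a type and less RNA per cell cannot be told apart.

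Control 1 stood above the other arrays in these genes. It gave the highest value of the 9 arrays for 8 of the 10 genes, and the highest of the controls for 9, all but *Tnnt3*. Among all genes it was highest of the 9 arrays for 13.4% and highest of the controls for 25.4%. Without control 1, the median log2 fold change of the 10 genes was -0.06, that of the myogenic genes -0.07 and that of the sclerotome and somite genes -0.03, with 7 of the 10 negative. *Myog* and *Tnnt3* were again the 2 genes lower at an unadjusted p under 0.05, where 4.46% of all genes were. Each gene is therefore described with and without this array. It was picked from these same values, and leaving out a high control raises the fold change by arithmetic. OC mutant 2 also moved the medians by over 1.5 times, to -0.12 for the 10 genes, -0.10 for the myogenic and -0.14 for the sclerotome and somite genes, and without OC mutant 1 the last was -0.22.

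**Figure D1:**
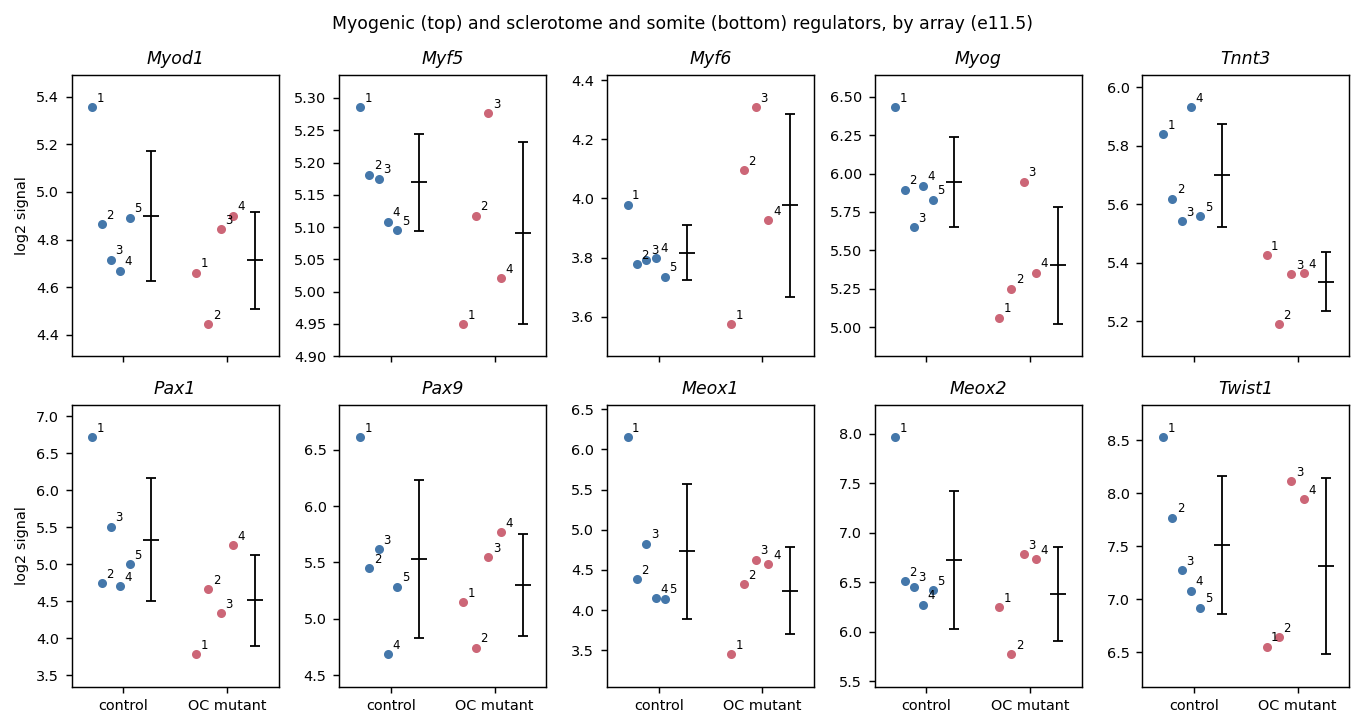
Log2 signal (y axis, its own scale in each panel) of the 10 genes in 5 control (blue) and 4 OC mutant (red) arrays, numbered by replicate, with the mean and SD of each group at its right. Control 1 is the highest array in 8 of the 10 panels, and *Tnnt3* is the panel in which the groups do not overlap.

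Among the myogenic regulators, *Myod1* and *Myf5*, which commit cells to muscle, were considered first. *Myod1* (feature 17478175) had log2 values of 5.36, 4.86, 4.72, 4.67 and 4.89 in controls 1 to 5, and of 4.66, 4.45, 4.84 and 4.90 in OC mutants 1 to 4. Control 1 stood above the other controls, which lay within the range of the mutants. OC mutant minus control was -0.19 (log2, SE 0.15, limma adjusted p = 0.716), and -0.07 (SE 0.12) without control 1. *Myf5* (feature 17244726) had 5.29, 5.18, 5.17, 5.11 and 5.10 in controls and 4.95, 5.12, 5.28 and 5.02 in OC mutants. Its values covered a narrow range, and OC mutant 3 lay beside control 1. Its log2 fold change was -0.08 (SE 0.09, limma adjusted p = 0.826), and -0.05 without control 1.

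*Myf6* (feature 17244732), the neighbour of *Myf5* in the mouse genome, is the myogenic factor that stays on in muscle fibers. It had 3.98, 3.78, 3.79, 3.80 and 3.74 in controls and 3.58, 4.10, 4.31 and 3.93 in OC mutants. The OC mutants were spread around the narrow range of the controls, with mutant 1 below it and mutants 2 and 3 above it. Alone of the 10, its mean was higher in OC mutants, by 0.16 in log2 units (SE 0.13, limma adjusted p = 0.737), and by 0.20 without control 1. Single mutants moved it in both directions, to 0.05 without OC mutant 3 and to 0.29 without OC mutant 1 (limma adjusted p = 0.537). *Myf6* and *Meox1* were also the 2 genes of the 10 that a filter on dim genes would have removed. Passing that filter does not show that the other genes are above background, since the table holds no detection calls.

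The largest difference among the myogenic factors was that of *Myog* (feature 17217428), which turns on the differentiation program. It had 6.43, 5.90, 5.65, 5.92 and 5.83 in controls and 5.06, 5.25, 5.95 and 5.35 in OC mutants. OC mutants 1, 2 and 4 lay below every control, whereas OC mutant 3 lay above 4 of the 5. Controls averaged 5.95 ± 0.29 (SD, n = 5) and OC mutants 5.40 ± 0.38 (SD, n = 4). This is a log2 fold change of -0.54 (SE 0.19, 95% interval -0.95 to -0.13), or 0.687-fold. The unadjusted limma p was 0.0144 and the adjusted p 0.400, and the exact two-sided permutation test of the 126 assignments gave p = 0.0714. Without control 1 the log2 fold change was -0.42 (95% interval -0.79 to -0.05, limma adjusted p = 0.509), and without OC mutant 1 the interval ran from -0.86 to 0.01.

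*Tnnt3* (feature 17485246), the fast skeletal troponin T, was the one gene of the 10 whose groups did not overlap. It had 5.84, 5.62, 5.54, 5.93 and 5.56 in controls and 5.43, 5.19, 5.36 and 5.36 in OC mutants. Every mutant value was below the lowest control, and the highest control was control 4, not control 1. The mutant values were near the medians of the arrays over all features, 5.23 to 5.31. Controls averaged 5.70 ± 0.18 (SD, n = 5) and OC mutants 5.34 ± 0.10 (SD, n = 4), with a log2 fold change of -0.36 (SE 0.11, 95% interval -0.59 to -0.13), or 0.778-fold, with an unadjusted limma p of 0.00519. Over all genes it did not pass (adjusted p = 0.348), and the exact two-sided permutation test gave p = 0.00794, the smallest that 5 arrays against 4 allow. Without control 1 the log2 fold change was -0.33 (95% interval -0.57 to -0.08), with an exact permutation p = 0.0286, again the smallest possible for 4 arrays against 4.

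The sclerotome factor *Pax1* (feature 17377328) had the largest mean difference of the 10 genes and also the largest spread. It had log2 values of 6.71, 4.74, 5.51, 4.70 and 4.99 in controls and 3.78, 4.66, 4.34 and 5.26 in OC mutants. OC mutants 1, 2 and 3 lay below every control, and OC mutant 4 lay above 3 of the 5. The lowest and the highest control differed 4.04-fold, and the lowest and the highest mutant 2.78-fold. The mean log2 difference was -0.82 (SE 0.40, 95% interval -1.70 to 0.05, limma adjusted p = 0.539, exact two-sided permutation p = 0.135). Without control 1 it was -0.48 (95% interval -1.09 to 0.14).

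*Pax9* (feature 17275604), its close relative in the sclerotome, had 6.61, 5.45, 5.62, 4.69 and 5.29 in controls and 5.15, 4.74, 5.54 and 5.77 in OC mutants. The mutants fell within the range of the controls, whose lowest array was control 4. The log2 difference, -0.23 (SE 0.33, limma adjusted p = 0.863), turned to 0.04 without control 1 (95% interval -0.49 to 0.57). Neither paired-box gene passed limma, and the 95% intervals of both included 0.

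The somite homeobox gene *Meox1* (feature 17269974) had 6.15, 4.39, 4.83, 4.15 and 4.14 in controls and 3.45, 4.32, 4.63 and 4.57 in OC mutants. Its relative *Meox2* (feature 17275062) had 7.97, 6.51, 6.46, 6.27 and 6.42 in controls and 6.25, 5.77, 6.79 and 6.73 in OC mutants. For both genes control 1 was far above the other controls, 3.42-fold above their mean for *Meox1* and 2.93-fold for *Meox2*, and OC mutants 3 and 4 were within or above the range of the remaining controls. For *Meox1* the log2 fold change was -0.49 (SE 0.39, limma adjusted p = 0.722) and -0.13 without control 1. For *Meox2* it was -0.34 (SE 0.33, limma adjusted p = 0.780) and -0.03 without control 1, with a 95% interval from -0.46 to 0.41.

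*Twist1* (feature 17274959) had 8.53, 7.77, 7.27, 7.08 and 6.92 in controls and 6.55, 6.64, 8.12 and 7.95 in OC mutants. The mutants fell on both sides of controls 2 to 5: mutants 1 and 2 were below them and mutants 3 and 4 above them. Their mean log2 difference from controls was -0.20 (SE 0.39, limma adjusted p = 0.909). It was 0.05 without control 1, 0.05 without OC mutant 1 and 0.02 without OC mutant 2.

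**Figure D2:**
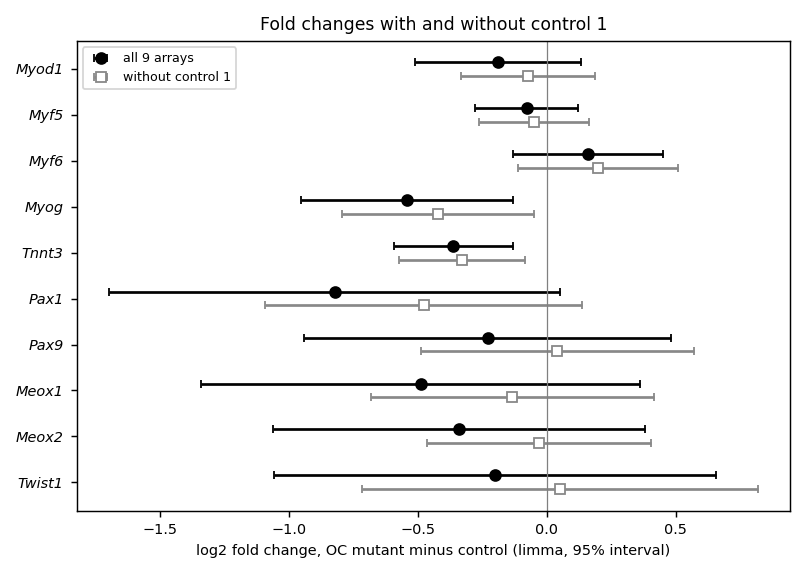
Log2 fold change of the 10 genes, OC mutant minus control (x axis), with its 95% limma interval, over all 9 arrays (filled circles) and without control 1 (open squares). The intervals of *Myog* and *Tnnt3* lie below 0 in both, and *Pax9* and *Twist1* change sign.

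The 5 sclerotome and somite genes varied from array to array more than nearly all genes. Around the group means, the SD over the arrays was 0.75 for *Pax1*, 0.73 for *Twist1*, 0.73 for *Meox1*, 0.61 for *Meox2* and 0.61 for *Pax9* on the log2 scale, which put them between the 99.2 and the 99.7 percentile of all genes. The median SD of all genes was 0.176. Without control 1 they lay between the 93.0 and the 99.6 percentile. The myogenic genes were less spread, with *Myog* at the 91.3 percentile, *Myod1* at 77.0, *Myf6* at 67.4, *Tnnt3* at 35.3 and *Myf5* at 14.2.

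**Figure D3:**
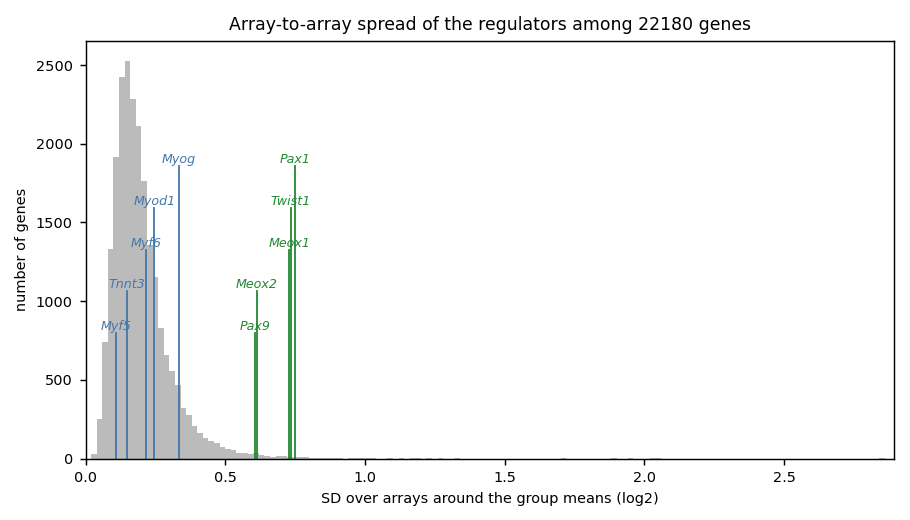
Histogram of the SD over the 9 arrays around the group means (x axis, log2 scale) for all 22180 genes (y axis, number of genes in bins 0.02 wide), with lines at the 5 myogenic genes (blue) and the 5 sclerotome and somite genes (green). The green lines lie in the upper tail, from 0.61 to 0.75, and the median of all genes is 0.176.

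The mean log2 value of the 5 sclerotome and somite genes ordered the arrays. It was 7.19 in control 1, 5.77, 5.94, 5.38 and 5.55 in controls 2 to 5, and 5.04, 5.23, 5.88 and 6.05 in OC mutants 1 to 4. OC mutants 1 and 2 were thus the lowest of the 9 arrays, and OC mutant 4 was second to control 1. The mean of the 5 myogenic genes was 5.38 in control 1, 5.07, 4.98, 5.09 and 5.02 in the other controls, and 4.73, 4.82, 5.15 and 4.91 in OC mutants. Here too control 1 was the highest and OC mutants 1 and 2 were the lowest. OC mutant 1 gave the lowest of the 9 values for 6 of the 10 genes (14.4% of all genes). OC mutant 2 did so for 3 (11.1%) and control 4 for 1 (9.93%).

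After the group means were taken off, the 10 pairs of sclerotome and somite genes had a median Pearson r of 0.82 over the 9 arrays (0.64 to 0.93), and of 0.61 without control 1. The 10 pairs of myogenic genes had a median of 0.40, and of 0.14 without control 1. Between the sets it was 0.57 over 25 pairs, and 0.23 without control 1. These values are descriptions, since all genes were read on the same 9 arrays and share their total signal and normalization. Some pairs kept a high value without control 1: *Myod1* with *Meox2* had 0.97 and then 0.92, *Myf5* with *Myf6* 0.92 and 0.92, and *Meox2* with *Twist1* 0.86 and 0.85. *Tnnt3* had r of 0.38 with *Myog* and 0.34 with *Myod1*, between 0.06 and 0.42 with the sclerotome and somite genes, and -0.03 and -0.04 with *Myf5* and *Myf6*.

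Further genes of muscle were then examined. Of 30 genes of contractile proteins and the muscle membrane, 22 were lower in the mean of the OC mutants (48.7% of all genes), and the median log2 fold change was -0.09. At an unadjusted p under 0.05, 3 were lower (4.93% of all genes) and 0 higher (4.81%), and 0 passed the adjusted p. The 3 were *Tnni2* (fast troponin I) with -0.27, *Tnni1* (slow troponin I) with -0.29, and *Tnnt2* with -0.42. *Tnnt2* encodes the cardiac troponin T that embryonic skeletal muscle also makes. Without control 1 the 3 had -0.20, -0.27 and -0.29, in that order. The groups did not overlap for *Tnni2* and *Tnni1*, 2 of the 30 (background 1.79%). For *Tnnt2* they overlapped, and control 1 was its highest array. The other troponin genes of the list did not reach an unadjusted p under 0.05, with 0.03 for *Tnnc1*, -0.05 for *Tnnt1* and -0.20 for *Tnnc2*. The list's mean per array was 4.81 to 5.06 in controls and 4.68 to 5.05 in OC mutants. Cardiac actin *Actc1*, named after its values were seen, was 7.09 in control 1, 6.94 in control 3 and 7.20 in OC mutant 3, and between 4.10 and 5.72 in the other 6 arrays, so that its high arrays were in both groups.

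Of 19 regulators of muscle precursors, 10 had a higher and 9 a lower mean in OC mutants. Their median log2 fold change was 0.01, and 0 genes reached an unadjusted p under 0.05 in limma. Several of them, such as *Pax3*, *Pax7*, *Lbx1* and *Sim1*, are also made in the spinal cord itself. *Pax3*, which acts in dermomyotome and in dorsal cord progenitors, ran from 9.46 to 10.1, and its means differed by 0.22 (SE 0.12, limma adjusted p = 0.559). Among the 4 *Id* genes, inhibitors of the E-box binding factors, 0 passed an unadjusted p under 0.05 in limma, and *Id3* had -0.31 (SE 0.19), and -0.20 without control 1.

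Of 19 other genes of sclerotome, tendon and cartilage, 13 were lower in the mean of the OC mutants (48.7% of all genes). Their median log2 fold change was -0.09, and 0.04 without control 1. At an unadjusted p under 0.05, 2 were lower (4.93% of all genes): *Scx*, the tendon progenitor factor, with -0.42, and -0.26 without control 1, and *Tcf15* (paraxis), a factor of the somite epithelium, with -0.21. Of 20 mesenchyme genes, 15 were lower in the mean of the OC mutants, and their median was -0.07, and 0.07 without control 1. At an unadjusted p under 0.05, 2 were lower (again against 4.93%): *Aldh1a2*, the retinoic acid synthesis enzyme that motor neurons of the cord also make, with -0.56 and *Crabp1* with -0.31. In neither list did a gene pass the adjusted p.

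The level of both lists followed that of the sclerotome and somite genes over the arrays. The mean of the mesenchyme list was 8.01 in control 1, 6.94 to 7.34 in the other controls, and 7.03, 7.05, 7.32 and 7.63 in OC mutants 1 to 4. Control 1 was the highest of the 9 arrays for 16 of its 20 genes, and for 12 of the 19 sclerotome, tendon and cartilage genes. After the group means were taken off, the r of the mesenchyme list with the mean of *Pax1*, *Pax9*, *Meox1*, *Meox2* and *Twist1* was 0.94 (Spearman's rho 0.92) and 0.82 without control 1. That of the sclerotome, tendon and cartilage list was 0.95 (rho 0.80) and 0.87 without control 1. These too are descriptions over 9 arrays. The part of this tissue in the difference between the groups was not tested.

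Of 12 genes of cord neurons, 11 had a lower mean in OC mutants (48.7% of all genes), with a median log2 fold change of -0.16, and -0.25 without control 1. At an unadjusted p under 0.05, 2 were lower (4.93% of all genes): *Mnx1*, a motor neuron factor, with -0.44 and the neuronal tubulin gene *Tubb3* with -0.26. Between the groups they thus had the same sign as most of the muscle and sclerotome genes, whereas over the arrays their order was different. Their mean was 8.16 in control 1 and 8.62 to 8.77 in the other controls, and 8.49, 8.58, 8.23 and 8.37 in OC mutants 1 to 4. The arrays with the lowest neuronal level, control 1 and OC mutants 3 and 4, were 3 of the 4 arrays with the highest mean of the sclerotome and somite genes, the fourth being control 3, which had the highest neuronal level. The r was -0.86 (rho -0.57), and -0.53 without control 1. With the mean of the 5 myogenic genes it was -0.93 (rho -0.87), and -0.89 without control 1. Control 1 was the highest array for 0 of the 12, and for 16 of the 20 mesenchyme genes. For 12 genes of cord progenitors the mean was 7.83 in control 1 and 7.81 to 8.03 in the other controls. It was 7.81, 7.74, 8.08 and 7.93 in OC mutants 1 to 4. Their r with the mean of the sclerotome and somite genes was 0.06, and 0.60 without control 1. The order of the neuron genes was thus not that of all cord genes read.

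**Figure D4:**
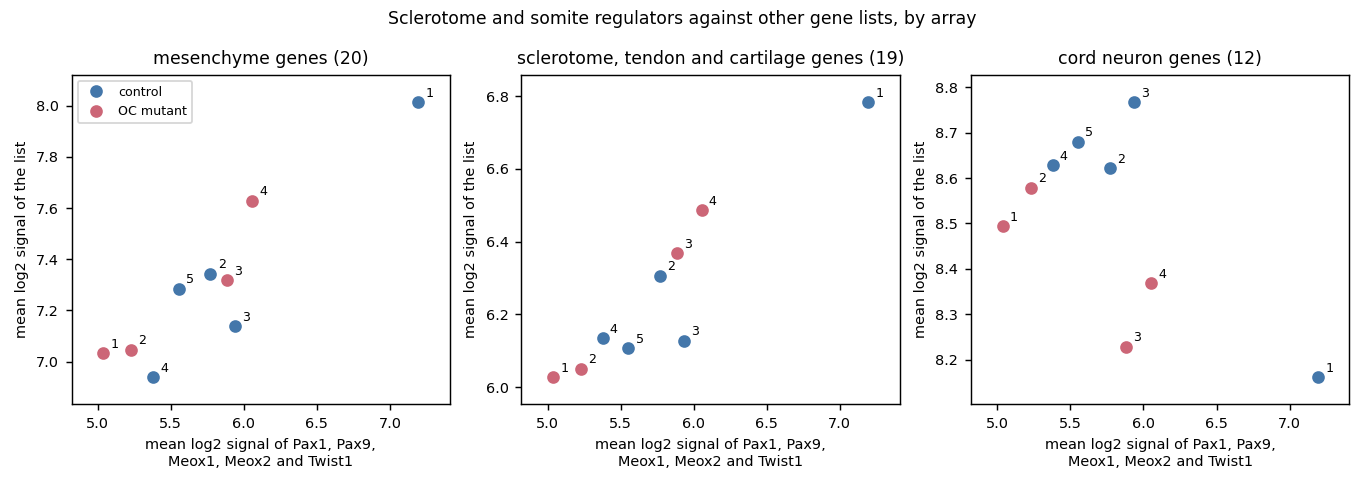
Mean log2 signal of 3 gene lists (y axes: 20 mesenchyme genes, 19 sclerotome, tendon and cartilage genes, 12 cord neuron genes) against the mean log2 signal of *Pax1*, *Pax9*, *Meox1*, *Meox2* and *Twist1* (x axes), by array, with controls in blue and OC mutants in red. Control 1 lies at the far right, highest for the first 2 lists (8.01 and 6.78) and lowest for the neuron genes (8.16).

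Markers of other tissues that a dissected cord could hold were also read. The mean of 8 blood genes was 7.10 to 7.50 in controls and 6.85, 6.80, 7.56 and 7.37 in OC mutants 1 to 4, lowest in OC mutants 1 and 2 as for the muscle and sclerotome genes. That of 9 epidermis genes was 5.03 in control 1 and 4.64 to 4.80 in the other controls, and 4.60 to 4.92 in OC mutants. For 10 genes of sensory ganglia and neural crest it was 6.59 to 6.83 in controls and 6.41 to 6.59 in OC mutants. The lowest control mean and the highest mutant mean were both 6.59. Every mutant value lay below every control value for 1 of these genes, *Prph* (background 1.79%). All 10 of these genes had a lower mean in OC mutants (48.7% of all genes), among them *Prph* (peripherin), with -0.76 (SE 0.15, limma adjusted p = 0.170). At an unadjusted p under 0.05, 2 were lower (4.93% of all genes), *Prph* and *Foxd3* (-0.32). The genes did not move together over the arrays. Their r with the mean of the 10 regulators was 0.83 for *Sox10*, -0.06 for *Foxd3*, -0.48 for *Avil* and -0.71 for *Prph*. Whether they were read from ganglia or from the cord was not tested. The means of 12 endothelial, 12 macrophage and 6 notochord and floor plate genes overlapped between the groups. At an unadjusted p under 0.05, each of these 3 lists held 1 lower gene (4.93% of all genes): *Sox18* (-0.38), *Fcer1g* (-0.35) and *Foxa2* (-0.37). The last list also held 1 higher gene (4.81%), *Chrd* (0.32). The groups did not overlap for *Fcer1g* (lower, background 1.79%) and *Chrd* (higher, background 2.15%). Around the group means, the epidermis list had an r of 0.85 with the mean of the sclerotome and somite genes (0.66 without control 1). Blood had 0.68 (0.71 without control 1), endothelium 0.67 (0.52) and macrophages 0.23 (0.37). Ganglia and neural crest had 0.52 (0.69 without control 1), and notochord and floor plate 0.46 (-0.02). With the mean of the myogenic genes, blood had 0.86 (0.91 without control 1), and the contractile and membrane list 0.71 (0.64). Without control 1 and OC mutant 3, the 2 farthest arrays, these were 0.84 and -0.12. The 4 *Id* genes had 0.90 (0.89 without control 1) and the sclerotome, tendon and cartilage list 0.84 (0.67). In no list did a gene pass the adjusted p. What these tissues contribute to the values of the 10 genes was not tested.

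The 10 protein-coding genes, not in the set, whose values were most like the mean of the 10 regulators over the 9 arrays were *Kdm3a*, *Cdh3*, *Iah1*, *Gabpb2*, *Stk26*, *F11r*, *Atp5e*, *Asb4*, *Gpc3* and *Mpp1*, with Pearson r from 0.97 to 0.99 after the group means were taken off, and from 0.90 to 0.97 without control 1. They were chosen for this value among 18954 genes, of which 1.32% had an r over 0.9. *Cdh3* (P-cadherin) was 7.41 in control 1, 5.65 to 6.12 in the other controls, and 5.39, 5.76, 6.48 and 6.68 in OC mutants 1 to 4. *Gpc3*, a cell surface proteoglycan, was 10.1 in control 1, 8.67 to 9.07 in the other controls, and 8.56, 8.52, 9.33 and 9.52 in OC mutants. In both, as for *Twist1*, OC mutants 1 and 2 were below and OC mutants 3 and 4 above controls 2 to 5, except that *Cdh3* of mutant 2 lay among those controls.

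The arrays themselves were alike in overall signal. Array medians lay between 5.23 and 5.31, and Pearson r between arrays, over genes, was 0.981 to 0.988 within controls, 0.974 to 0.982 within OC mutants and 0.973 to 0.984 across the groups. The brightest of the cord markers read were *Stmn2* of young neurons, from 11.4 to 12.0, and *Fabp7* of progenitors, from 11.2 to 11.7, over the 9 arrays. *Oc2* was 7.52 to 8.01 in controls and 6.57 to 7.21 in OC mutants, and *Onecut3* 6.85 to 7.35 and 6.17 to 6.42. The groups overlapped for neither (background 1.79% of all genes), but neither passed in limma (adjusted p = 0.127 and 0.0624). *Hnf6* was 7.05 to 7.78 and 7.13 to 7.29, so its feature did not separate the groups, and which part of the gene was deleted and which part the probes read are not given in the sources used here.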

How the data were processed

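The values are log2 signals of 41345 features on 9 arrays, as the authors deposited them in 1 table. Per the labels, biotinylated cDNA was made from total RNA with the GeneChip WT PLUS kit. The authors name R for the analysis. The background correction, summarisation and normalization are not given in the sources used here, and the table holds no detection calls, so a dim gene may be at background and its fold change compressed. Apart from naming the brightest cord markers, no gene's level is set against another's.

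Features were named through the platform annotation: 23521 had 1 symbol, 1820 several and 16004 were not listed. Symbols were updated through RefSeq (23328 matched). Where a symbol had several features (1082 symbols), the one with the highest mean was used, which left 22180 genes. Genes were compared between OC mutant and control with limma 3.58.1 (R 4.3.3, lmFit and eBayes) and Benjamini-Hochberg adjustment over all 22180 genes and a threshold of 0.05. Single genes were also tested over all 126 assignments of the arrays, with the absolute difference of means as the statistic (scipy 1.17.1). The limma fit and the permutation were checked on simulated data. Arrays, not depth, limit the precision.

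Named are all 10 genes, up to 4 genes of smallest p per list, the 10 most like genes, and markers of highest level. The genes and the 15 lists were chosen with earlier results of these data known. Listed genes without a feature of their own are not analysed here. The alternatives were the mean of a gene's features, every feature on its own, quantile normalization, centring on array medians, a filter that left out the dimmest genes, trended and robust eBayes, array weights, no moderation, a replicate block, and each array left out in turn.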

Additional observations from a re-analysis of the deposited data

Results flagged for a closer look

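In 26 groups of arrays (10 genes and 3 means, in control and in OC mutant spinal cords), 4 held an array that stood far from the rest of its group, and each time it was control 1 on the high side. *Myf6*, a dim gene, was 3.98 in control 1, with the other controls between 3.74 and 3.80. OC mutants 2 and 3 were higher than control 1, at 4.10 and 4.31. *Meox2* was 7.97, with the next control at 6.51. The mean of the 10 genes was 6.29, with the next control at 5.46, and the mean of the 5 myogenic genes was 5.38, with the next at 5.09. Chance alone marks about 1 group in 20, and these groups share their arrays. Over all genes, control 1 was the highest control and stood apart in this way for 1.19%, and for 2 of the 10 genes.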

How the results depend on the processing

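No gene of the 10 passed the adjusted p under any alternative, and 2 or 3 had an unadjusted p under 0.05: *Tnnt3* in 18 of 18 alternatives, *Myog* in 17, *Pax1* in 3 and *Myf6* in 1. The median log2 fold change of the 10 genes stayed negative, between -0.37 and -0.19 under other settings. With 1 array left out it ran from -0.42 to -0.06, that of the myogenic genes from -0.25 to -0.07 and that of the sclerotome and somite genes from -0.47 to -0.03, each nearest to 0 without control 1. *Pax9* ran from -0.44 to 0.042, positive without control 1, and *Twist1* from -0.47 to 0.053, positive without control 1 (0.052), OC mutant 1 (0.053) or OC mutant 2 (0.024). Over all genes, 5 passed the adjusted p. Array weights gave 12, and leaving out 1 array gave 2 to 44, the most without OC mutant 3. The causes were not tested. At an unadjusted p under 0.05, 1067 genes were higher and 1094 lower. Quantile normalization gave 767 and 1428, and centring on array medians 758 and 1302. The filter on dim genes removed *Myf6* and *Meox1* and gave 670 and 973. Same-numbered samples did not deviate together (r from -0.39 to -0.13). This cannot show whether they share a litter, since differences between single arrays enter the same values. With the replicate block, 1 gene passed in all, and *Myog* had -0.57 and *Tnnt3* -0.40. The number of arrays limits what can be detected.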
